A study of Mus musculus with 13 samples.

Results

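The cell cycle genes described here are 44 rows of a bulk RNA sequencing count table of 48587 mouse gene symbols. They were chosen by symbol from textbook roles in cell division, though with earlier results of these data known. By role they fall into 9 genes of G1 and the entry into S phase, 10 of DNA replication (S phase), 21 of G2 and mitosis, and 4 inhibitors of cyclin-dependent kinases (CDKs). All 44 passed the filter on low counts that left 13246 genes for testing.

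The libraries were made from total RNA of C57BL/6J mice: 4 of sciatic nerve macrophages, 4 of optic nerve macrophages and 5 of brain microglia, the resident macrophages of the brain. All 3 groups share the strain, and no treatment or genotype is named for any of them. The sciatic nerve is peripheral and the optic nerve is central nervous tissue, and the study asks how macrophages of peripheral and central tissue differ. The labels give no age, sex, sorting gate or dissociation step, and they name no separate animals, so the p-values measure the spread between samples that may be technical replicates. The brain columns of the table were assigned by elimination, since their names hold neither nerve's initials.

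Cells leave rest when D-type cyclins activate CDK4 and CDK6, which phosphorylate the retinoblastoma protein and free E2F factors to switch on the genes of DNA replication. Cyclin A and cyclin B with CDK1 then drive G2 and mitosis, and a repressor complex called DREAM holds the mitotic genes down in resting cells. Tissue macrophages can maintain themselves by dividing in place, and adult brain microglia are known as slowly dividing cells. The transcripts below are levels of RNA, and no division was measured.

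Levels are in CPM, counts per 1e6 counts after scaling by library total and TMM factor. Library totals ran from 10.9 to 23.5 M counts. Values after ± are SDs, with n = 4 for each nerve and n = 5 for brain, and differences are log2 fold changes from 1 edgeR quasi-likelihood fit over all 13 libraries, called at a Benjamini-Hochberg adjusted p under 0.05. In such bulk samples, fewer cells of a type and less RNA per cell cannot be told apart. The microglial markers were highest in the brain columns (summed level 24322 CPM in replicate 1 and 31837 to 46818 CPM in the others). They were lower in the optic nerve (21529 to 24604 CPM), where only replicate 3 passed brain replicate 1, and lowest in the sciatic nerve (2510 to 2800 CPM). In optic nerve against brain 6 of the 7 microglial markers were called lower, with a median log2 fold change of -1.77, against 17.4% of all tested genes. The border and peripheral macrophage markers were at 21308 to 32220 CPM in the sciatic nerve against at most 604 CPM in any library of the other tissues. Brain replicate 1 stood apart by its low total of 10.9 M counts and by the 3.79% of its counts on mitochondrial genes, against 0.410% to 1.23% in the other 12 libraries. Brain replicates 1 and 2 also both differed from replicates 3, 4 and 5. Log CPM values correlated at 0.884 to 0.928 between these sets, against 0.966 to 0.971 among replicates 3, 4 and 5.

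Most of the cell cycle genes were higher in nerve macrophages than in brain microglia, and the genes of G2 and mitosis were the furthest apart. In sciatic nerve against brain 35 of the 44 were higher and 0 lower, while 24.1% of all tested genes were called higher and 24.3% lower, 48.4% in all. Their median log2 fold change was 2.47, against -0.09 over all tested genes. In 33 of the 44, every sciatic nerve library lay above every brain library, as did 22.1% of all tested genes, and in 0 of the 44 below, as did 19.2% (41.3% in either direction).

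In optic nerve against brain 27 of the 44 genes were higher and 3 lower, while 19.6% of all tested genes were called higher and 17.4% lower, 36.9% in all. The median log2 fold change was 1.82, against -0.08 over all tested genes, and in 24 genes every optic nerve library lay above every brain library (17.4% of all tested genes did) and in 3 below (14.4% did, 31.8% in either direction). Both comparisons use the same 5 brain libraries, so the counts are not independent of each other.

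Between the nerves fewer genes differed. Ccnd2, Cdk6, E2f1, Mcm6, Mki67, Cdkn1a and Cdkn2c were higher in sciatic than in optic nerve macrophages, 7 of 44, and 0 were lower, while 10.9% of all tested genes were called in each direction, 21.8% in all. Of the 44 genes, 12 reached an unadjusted p under 0.05, as did 4357 of all 13246 genes, and DESeq2 also called 0 lower. The median log2 fold change was 0.60 against 0.00 over all tested genes, and 13 genes had every sciatic nerve library above every optic nerve library (15.5% of all tested genes did) and 0 below (14.4% did, 29.9% in either direction).

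The order of the means was sciatic nerve, then optic nerve, then brain in 37 of the 44 genes, among them 20 of the 21 genes of G2 and mitosis. The libraries of all 3 tissues were fully separate in that order in 8 genes: Ccnd2, E2f1, Mki67, Cdk1, Aurkb, Cenpe, Nusap1 and Cdkn1a. In the other genes at least 1 pair of neighbouring tissues overlapped.

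**Figure D1:**
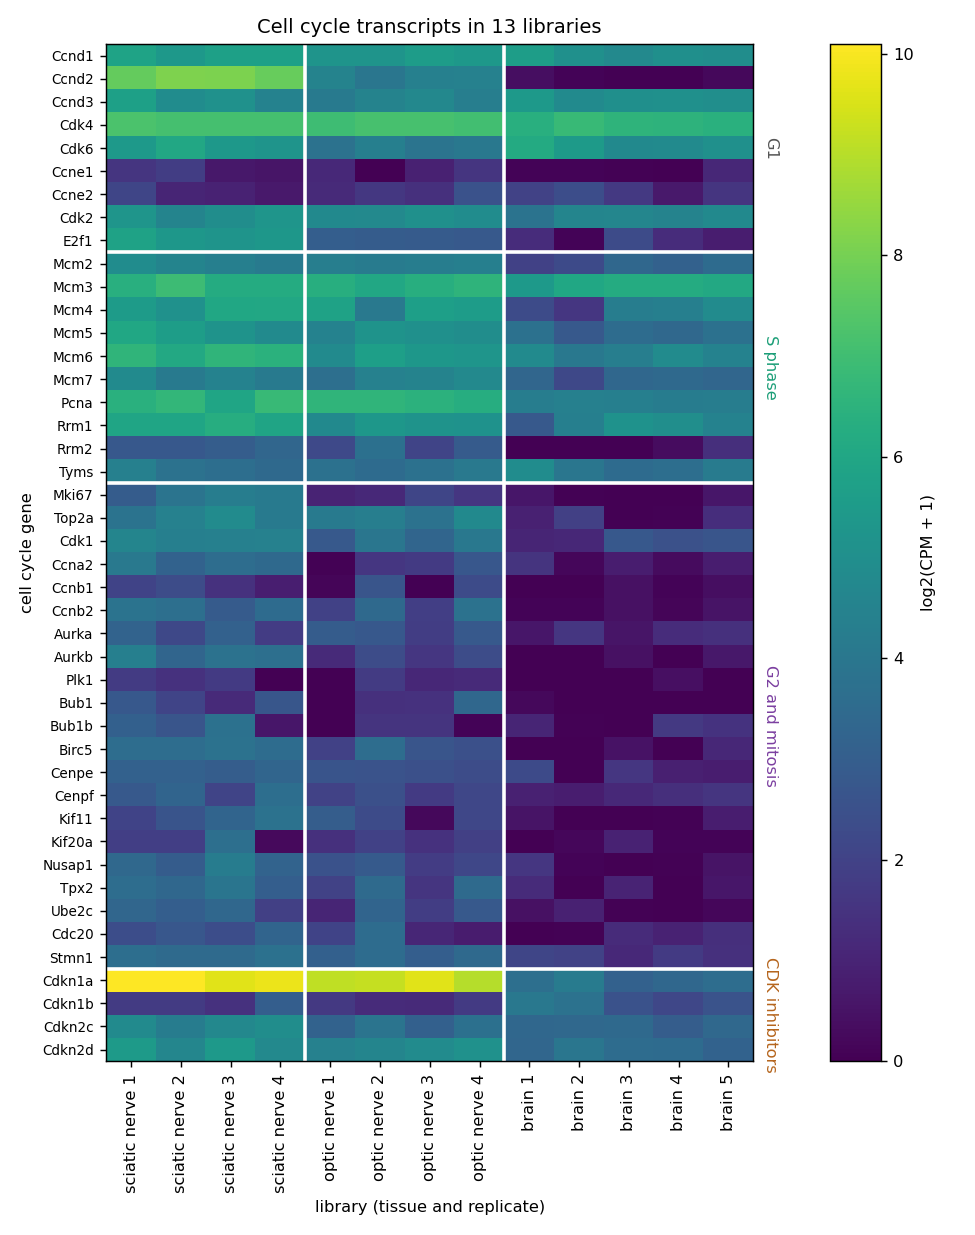
Level of each of the 44 cell cycle genes (rows, grouped by role) in each of the 13 libraries (columns, grouped by tissue), as log2(CPM + 1). Colours are to be compared along a row, since transcript lengths differ; the genes of G2 and mitosis are dark in the 5 brain columns, and Ccnd2 and Cdkn1a are the rows with the sharpest steps between tissues.

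The G1 genes did not move as a group. In sciatic nerve against brain 4 of 9 were higher (Ccnd1, Ccnd2, Cdk4, E2f1) and 5 were not called, with a median log2 fold change of 0.59. In optic nerve against brain Ccnd2, Cdk4 and E2f1 were higher and Ccnd3 and Cdk6 lower, with a median of 0.39. In sciatic against optic nerve Ccnd2, Cdk6 and E2f1 were higher, with a median of 0.44. Of all tested genes, 24.1% were called higher in sciatic nerve against brain and 10.9% between the nerves. In optic nerve against brain 19.6% of all tested genes were called higher and 17.4% lower. With 9 genes, the G1 shares there (33.3% and 22.2%) were not far from these.

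Ccnd2 encodes cyclin D2, 1 of the 3 D-type cyclins (mm10 chr6:127125162-127152193, minus strand). It was at 211, 279, 272 and 212 CPM in the sciatic nerve libraries, at 21.7, 14.7, 20.2 and 20.5 CPM in the optic nerve libraries, and at 0.302, 0.0712, 0, 0 and 0.167 CPM in the brain libraries. The 3 tissues did not overlap, and the brain libraries held 10 reads of it in all. The log2 fold changes were 11.30 (SE 0.45, adjusted p = 5.22e-11) for sciatic nerve against brain, 7.64 (SE 0.43, adjusted p = 4.65e-09) for optic nerve against brain and 3.66 (SE 0.32, adjusted p = 8.05e-07) for sciatic against optic nerve.

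The other D cyclins differed far less. Ccnd1, which encodes cyclin D1, was at 50.6 ± 6.71 (sciatic nerve), 40.5 ± 5.03 (optic nerve) and 33.7 ± 8.48 CPM (brain), a log2 fold change of 0.59 (SE 0.19, adjusted p = 0.0195) for sciatic nerve against brain. Ccnd3, which encodes cyclin D3, was at 33.9 ± 13.2, 20.7 ± 3.67 and 33.0 ± 5.62 CPM, lower in optic nerve than in brain (log2 fold change -0.67, SE 0.25, adjusted p = 0.045). Per kilobase of exon, where genes can be compared, the mean levels in sciatic nerve were 36.3 CPM per kb for Ccnd2, 13.5 for Ccnd1 and 13.8 for Ccnd3. In optic nerve Ccnd1 led with 10.8 CPM per kb, before Ccnd3 with 8.47 and Ccnd2 with 2.87. In brain Ccnd3 was at 13.5 CPM per kb, Ccnd1 at 9.01 and Ccnd2 at 0.0161. The D cyclin with the highest mean per kilobase was thus a different one in each tissue, and these orders between genes were not tested.

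Cdk4 and Cdk6, the kinase partners of the D cyclins, went different ways. Cdk4 was at 141 ± 7.24 (sciatic nerve), 134 ± 9.20 (optic nerve) and 91.8 ± 10.9 CPM (brain), with log2 fold changes of 0.62 (adjusted p = 0.000849) and 0.55 (adjusted p = 0.00337) against brain. Cdk6 was at 42.8, 66.2, 40.8 and 36.2 CPM in sciatic nerve, at 13.1, 19.3, 13.9 and 15.7 CPM in optic nerve and at 71.7, 44.0, 26.6, 27.5 and 32.3 CPM in brain. Every optic nerve library was below every library of the other tissues, while sciatic nerve and brain overlapped. The log2 fold changes of Cdk6 were -1.38 (SE 0.30, adjusted p = 0.00262) for optic nerve against brain and 1.58 (SE 0.31, adjusted p = 0.00177) for sciatic against optic nerve.

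E2f1, an activating E2F factor at the entry into S phase, was at 55.1, 39.7, 35.9 and 39.3 CPM in sciatic nerve, at 7.15, 6.62, 6.36 and 6.04 CPM in optic nerve and at 1.44, 0.0712, 3.96, 1.40 and 0.752 CPM in brain. The tissues did not overlap. The log2 fold changes were 4.81 (SE 0.63, adjusted p = 1.86e-05) for sciatic nerve against brain, 2.11 (SE 0.59, adjusted p = 0.0117) for optic nerve against brain and 2.70 (SE 0.63, adjusted p = 0.00543) between the nerves. The call in optic nerve was lost in a fit of only those tissues (adjusted p = 0.0533). The remaining G1 genes, which were not called in any comparison, were the cyclin E genes Ccne1 (means of 0.272 to 1.39 CPM over the tissues) and Ccne2 (1.46 to 2.48 CPM) and their partner kinase gene Cdk2 (21.8 to 31.8 CPM).

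Several of these calls lay near the threshold and changed when 1 library was left out, mostly at similar fold changes. The call of Ccnd1 in sciatic nerve against brain was lost without sciatic nerve replicate 1 (log2 fold change 0.52, adjusted p = 0.0572) or brain replicate 3 (0.51, adjusted p = 0.0509) and when libraries were scaled by their totals only (0.13, adjusted p = 0.599). That scaling also ended both calls of Cdk4 (0.17, adjusted p = 0.253, and 0.29, adjusted p = 0.0782). The call of Ccnd3 in optic nerve against brain was lost without sciatic nerve replicate 2 or 3, optic nerve replicate 1, 2 or 4, or brain replicate 1, 3, 4 or 5, at log2 fold changes of -0.70 to -0.56 and adjusted p from 0.0531 to 0.125. Without brain replicate 5, the highest brain library of Ccne1 (1.17 CPM), Ccne1 was called higher in both nerves (adjusted p = 0.00953 in sciatic and 0.0209 in optic nerve). Without brain replicate 1 Ccnd1 was called in optic nerve against brain (adjusted p = 0.0432), and Cdk2 was called in sciatic nerve against brain without sciatic nerve replicate 2 (adjusted p = 0.0263) or brain replicate 5 (adjusted p = 0.0437). Ccnd3 was called in sciatic against optic nerve without sciatic nerve replicate 4 (adjusted p = 0.0223) or brain replicate 1 (adjusted p = 0.0474).

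**Figure D2:**
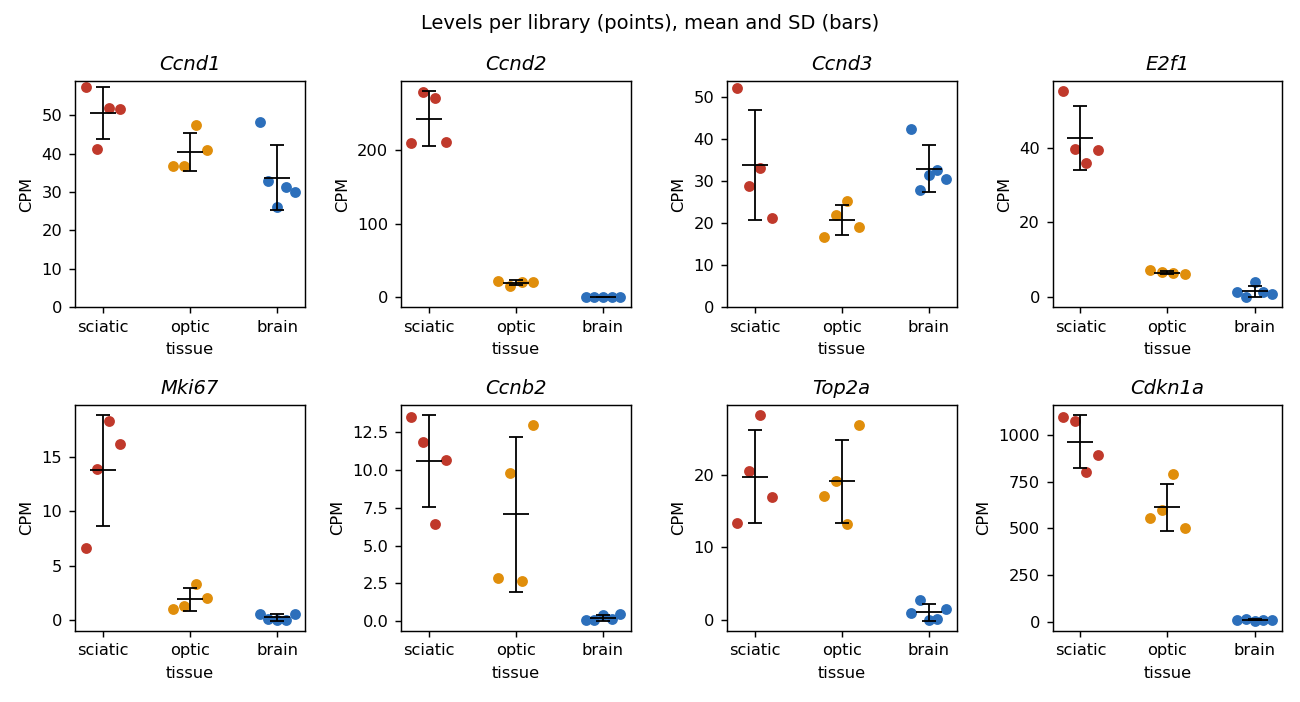
Level in CPM of 8 cell cycle genes in each library (points) by tissue, with the mean and SD as bars (4 sciatic nerve, 4 optic nerve and 5 brain libraries). Ccnd2, E2f1 and Cdkn1a separate all 3 tissues, Ccnd1 overlaps between them, Top2a overlaps between the nerves, and Ccnb2 splits the optic nerve libraries (2.87 and 2.62 against 9.79 and 12.96 CPM).

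Most of the S phase genes were higher in the nerves than in brain, with a smaller median difference than that of the mitotic genes. In sciatic nerve against brain 8 of 10 were higher, with a median log2 fold change of 1.75, and in optic nerve against brain 6 of 10, with a median of 1.37. Without brain replicates 1 and 2 together, 8 and 6 were called higher, and the medians were smaller, at 1.24 and 0.98. Between the nerves Mcm6 alone was called, with a median of 0.18 over the 10 genes. The shares of all tested genes called higher were 24.1%, 19.6% and 10.9% in these comparisons.

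Pcna, the sliding clamp of the replicative polymerases, was at 83.9, 101, 61.0 and 111 CPM in sciatic nerve, at 97.4, 95.4, 88.7 and 76.5 CPM in optic nerve and at 18.5, 19.97, 19.3, 17.9 and 18.5 CPM in brain. Both nerves lay above brain without overlap (log2 fold change 2.24, SE 0.17, adjusted p = 6.01e-08 in sciatic nerve, and 2.25, SE 0.17, adjusted p = 1.28e-07 in optic nerve), and the nerves overlapped each other (adjusted p = 0.993, SE of the difference 0.18).

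The Mcm2 to Mcm7 genes encode the 6 subunits of the replicative helicase. Mcm2, Mcm4, Mcm5, Mcm6 and Mcm7 were higher in sciatic nerve than in brain, by log2 fold changes of 1.33 to 2.08, and Mcm3 was not called (86.6 ± 21.7 against 63.5 ± 12.7 CPM, adjusted p = 0.0768). In optic nerve Mcm2, Mcm5, Mcm6 and Mcm7 were higher than in brain, by 0.80 to 1.53. Mcm4 narrowly missed the threshold there (42.4 ± 17.9 against 14.6 ± 11.3 CPM, adjusted p = 0.0513) and passed it without optic nerve replicate 2, the lowest of its tissue at 16.0 CPM (adjusted p = 0.033), or brain replicate 5 (adjusted p = 0.0239).

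Mcm6 was the S phase gene that separated the nerves. Its level was 97.4, 67.5, 95.5 and 85.2 CPM in sciatic nerve, 27.2, 50.9, 39.7 and 37.2 CPM in optic nerve and 27.2, 15.5, 18.9, 28.5 and 21.5 CPM in brain. The sciatic nerve libraries did not overlap those of the other tissues, while optic nerve replicate 1 lay within the range of brain. The log2 fold change was 1.16 (SE 0.23, adjusted p = 0.00209) for sciatic against optic nerve and 1.95 (SE 0.22, adjusted p = 4.17e-06) for sciatic nerve against brain. In optic nerve against brain it was 0.80 (SE 0.22, adjusted p = 0.0112), which was lost with library totals only (adjusted p = 0.0666).

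Of the genes for nucleotide supply, Rrm1 and Rrm2 encode the subunits of ribonucleotide reductase. Rrm2 was at 6.95 ± 1.48 (sciatic nerve), 6.41 ± 4.23 (optic nerve) and 0.370 ± 0.690 CPM (brain) (log2 fold changes 4.17, adjusted p = 0.00631, and 4.05, adjusted p = 0.0105). Rrm2 had no read in 3 of the 5 brain libraries, replicates 1, 2 and 3. Rrm1 was higher in sciatic nerve than in brain (64.0 ± 8.21 against 22.5 ± 11.1 CPM, log2 fold change 1.50, adjusted p = 0.0022) and stood at 34.0 ± 5.64 CPM in optic nerve. Rrm1 also had every sciatic nerve library above every optic nerve library without passing the threshold (adjusted p = 0.09), and was called without brain replicate 1 (adjusted p = 0.00418). Tyms, which encodes thymidylate synthase, had the highest mean in brain (16.6 ± 7.56 CPM) and was not called in any comparison (means of 13.6 ± 4.63 and 12.8 ± 2.24 CPM in sciatic and optic nerve).

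**Figure D3:**
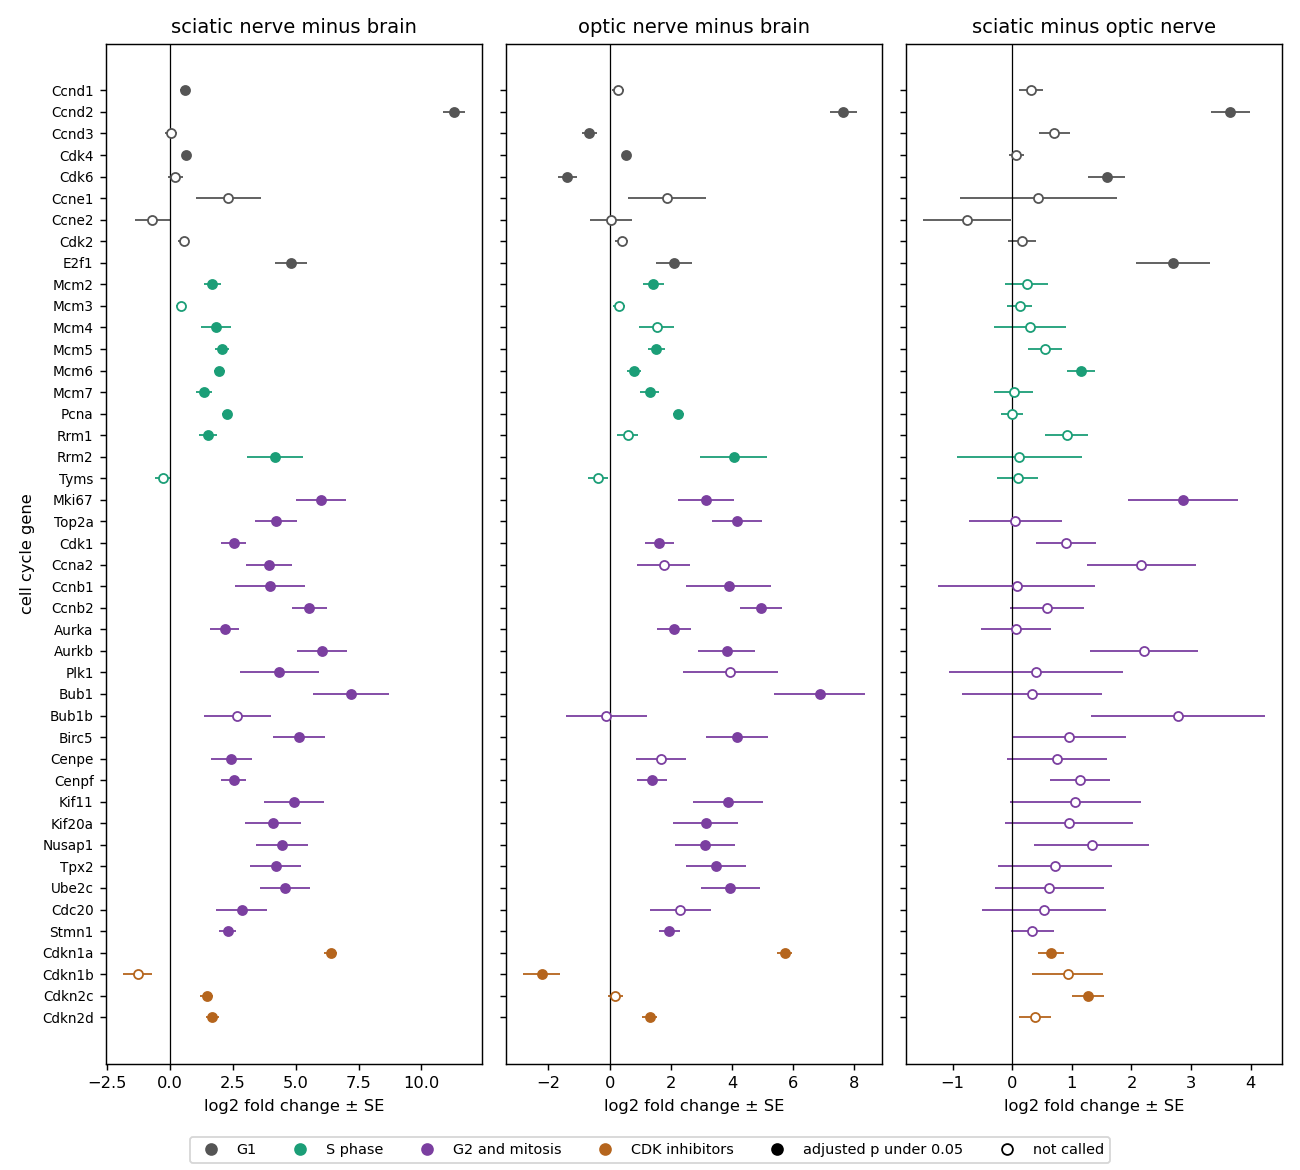
Log2 fold change ± SE of each of the 44 genes in the 3 comparisons, coloured by role; filled points passed an adjusted p of 0.05 in edgeR's quasi-likelihood test and open points did not. The 20 filled G2 and mitosis genes of sciatic nerve against brain lie between 2.17 and 7.19, Ccnd2 is the furthest right in each panel, and few points are filled in sciatic against optic nerve.

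The genes of G2 and mitosis are known to share a promoter layout, with CCAAT boxes upstream of a short element called the cell cycle homology region (CHR), through which DREAM and its activating counterpart act. The promoters of 4 of them are shown because all 4 genes were higher in both nerves and hold the layout in different arrangements. Each is 280 bases of RefSeq sequence of GRCm38.p6 read 5′ to 3′ on the gene's strand, from 250 bases before the start of the gene. Capitals mark CHR letters (TTTGAA, or TTCAAA where they lie on the other strand), CCAAT boxes (CCAAT, or ATTGG on the other strand) and, in Cdk1, the E2F letters TTTCGCG. They lie at chr9:70421525-70421804 (Ccnb2), chr10:69352883-69353162 (Cdk1), chr11:99024160-99024439 (Top2a) and chr7:135716350-135716629 (Mki67), all on the minus strand.
Ccnb2: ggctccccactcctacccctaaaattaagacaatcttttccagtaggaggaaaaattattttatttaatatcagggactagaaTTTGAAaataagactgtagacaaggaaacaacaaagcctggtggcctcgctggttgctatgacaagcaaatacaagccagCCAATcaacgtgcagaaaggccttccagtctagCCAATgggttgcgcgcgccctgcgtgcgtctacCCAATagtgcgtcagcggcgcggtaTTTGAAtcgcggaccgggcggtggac
Cdk1: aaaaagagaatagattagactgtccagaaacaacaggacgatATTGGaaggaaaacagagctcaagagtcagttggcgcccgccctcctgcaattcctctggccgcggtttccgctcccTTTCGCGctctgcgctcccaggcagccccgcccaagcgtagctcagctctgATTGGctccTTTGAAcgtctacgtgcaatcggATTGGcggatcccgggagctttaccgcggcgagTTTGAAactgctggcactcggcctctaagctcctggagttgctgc
Top2a: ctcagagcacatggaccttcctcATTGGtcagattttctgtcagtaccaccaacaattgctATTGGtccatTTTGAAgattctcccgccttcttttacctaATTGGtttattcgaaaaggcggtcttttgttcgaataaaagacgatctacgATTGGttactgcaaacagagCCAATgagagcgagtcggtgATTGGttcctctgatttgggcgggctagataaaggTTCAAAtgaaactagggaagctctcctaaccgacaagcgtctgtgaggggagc
Mki67: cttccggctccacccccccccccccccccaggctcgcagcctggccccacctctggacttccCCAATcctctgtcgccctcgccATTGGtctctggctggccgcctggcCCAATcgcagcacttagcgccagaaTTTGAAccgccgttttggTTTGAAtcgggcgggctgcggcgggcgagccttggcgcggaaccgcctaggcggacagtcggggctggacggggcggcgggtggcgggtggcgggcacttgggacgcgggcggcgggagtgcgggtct

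Over the promoters given by RefSeq, the CHR letters TTTGAA or TTTAAA, searched on both strands in 300 bases, were in 14 of 16 promoters of G2 and mitosis genes (87.5%) and in 27.6% of all 32841 promoters. TTTGAA alone was in 68.8% and 17.9%. CCAAT was in 87.5% of the promoters of G2 and mitosis genes and in 37.4% of all, and both motifs together in 81.2% and 10.7%. The S phase genes had CCAAT in 9 of 10 promoters, the CHR letters in 3 of 10 and the E2F letters, which were TTTCCCG and TTTCGCG together with TTTGCCG and also TTTGGCG, in 40.0%, against 6.71% of all promoters for the E2F letters. In the 7 promoters of G1 genes the shares were 14.3% for CHR and 28.6% for CCAAT, and in the 6 of the inhibitors 16.7% for CHR, with CCAAT in 3. These letters are shared among members of a role whatever their level, and no binding was measured. RefSeq promoters were at hand for 35 of the 44 genes (39 promoters).

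**Figure D4:**
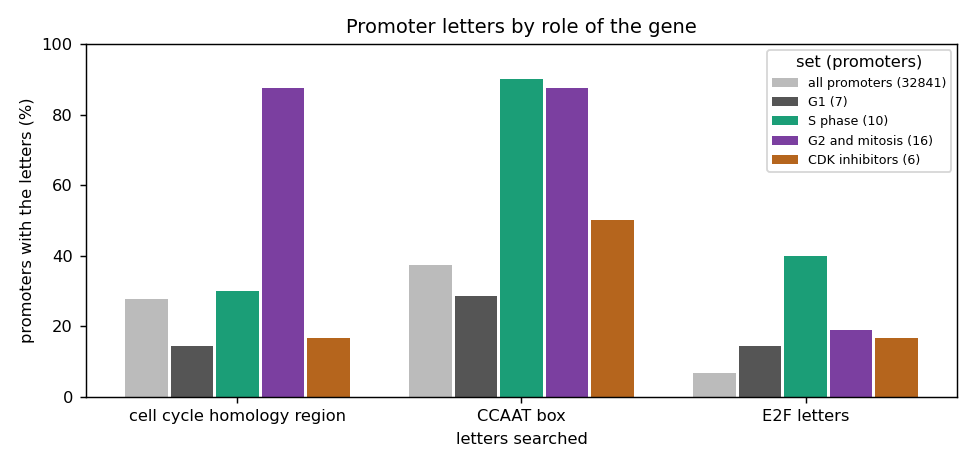
Share of promoters (%, 300 bases) that hold the CHR letters, the CCAAT box or the E2F letters on either strand, for all 32841 promoters and for the promoters of each role (number of promoters in brackets). The bars of G2 and mitosis stand at 87.5% for CHR and CCAAT, and those of S phase at 9 of 10 for CCAAT and 40.0% for E2F.

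In sciatic nerve against brain 20 of the 21 genes of G2 and mitosis were higher, by log2 fold changes of 2.17 to 7.19 with a median of 4.20. In optic nerve against brain 16 of 21 were higher, with a median over the 21 of 3.15. The shares of all tested genes called higher were 24.1% and 19.6%. Between the nerves Mki67 alone was called, with a median of 0.75 and positive fold changes in favour of sciatic nerve in all 21, of which 6 had no overlap between the nerves. These are 1 and 6 of 21, against 10.9% of all tested genes called higher and 15.5% without overlap in that direction. Their levels were low: the summed level of the 21 was 196, 175, 223 and 179 CPM in the sciatic nerve libraries, 73.9, 142, 68.7 and 137 CPM in the optic nerve libraries and 18.4, 11.1, 16.5, 14.9 and 21.8 CPM in the brain libraries. The 3 tissues did not overlap in this sum, and optic nerve replicates 2 and 4 were well above replicates 1 and 3.

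Mki67 encodes Ki-67, the usual marker of cycling cells (mm10 chr7:135689784-135716361). It was at 6.60, 13.9, 18.4 and 16.2 CPM in sciatic nerve, at 1.01, 1.24, 3.29 and 2.01 CPM in optic nerve and at 0.529, 0.0356, 0, 0 and 0.543 CPM in brain. The tissues did not overlap. The log2 fold changes were 6.01 (SE 0.99, adjusted p = 0.00016) for sciatic nerve against brain, 3.15 (SE 0.92, adjusted p = 0.0149) for optic nerve against brain and 2.86 (SE 0.92, adjusted p = 0.0369) for sciatic against optic nerve. The last of these calls was lost without sciatic nerve replicate 2, 3 or 4 or optic nerve replicate 1, 2 or 4 (log2 fold changes 2.65 to 2.89, adjusted p from 0.0706 to 0.096), and that in optic nerve against brain in a fit of only those tissues (adjusted p = 0.0593).

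Top2a, the DNA topoisomerase of dividing cells, was at 13.3, 20.5, 28.2 and 16.9 CPM in sciatic nerve, at 17.1, 19.1, 13.2 and 26.8 CPM in optic nerve and at 0.907, 2.78, 0, 0.0379 and 1.50 CPM in brain. Both nerves lay above brain (log2 fold changes 4.21 and 4.16, SE 0.83 in each, adjusted p = 0.000698 and 0.00132) and overlapped each other (0.05, SE 0.78). The means in sciatic and optic nerve were thus 13.8 ± 5.11 and 1.89 ± 1.03 CPM for Mki67, and 19.7 ± 6.38 and 19.1 ± 5.73 CPM for Top2a; the difference between these genes was not tested.

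Cdk1, the mitotic kinase, and its cyclins were measured next. Cdk1 was at 23.3, 19.7, 19.9 and 20.6 CPM in sciatic nerve, at 5.99, 14.4, 8.88 and 15.6 CPM in optic nerve and at 1.06, 1.17, 5.83, 4.73 and 5.30 CPM in brain. The tissues did not overlap, though optic nerve replicate 1 came close to brain replicate 3, and the log2 fold changes against brain were 2.52 (SE 0.49, adjusted p = 0.000616) in sciatic and 1.62 (SE 0.48, adjusted p = 0.0158) in optic nerve. Ccnb2, which encodes cyclin B2, was at 13.5, 11.8, 6.41 and 10.7 CPM in sciatic nerve, at 2.87, 9.79, 2.62 and 12.96 CPM in optic nerve and at 0.0755, 0.0712, 0.373, 0.114 and 0.459 CPM in brain. Optic nerve replicates 2 and 4 lay within the sciatic nerve range or close to it and replicates 1 and 3 below it, and all nerve libraries lay above brain (log2 fold changes 5.54, adjusted p = 1.33e-05, and 4.95, adjusted p = 6.5e-05).

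Ccnb1, which encodes cyclin B1, showed the split most sharply. It was at 0.101, 5.32, 0 and 3.91 CPM in the optic nerve libraries, at 0.799 to 4.15 CPM in sciatic nerve and at 0 to 0.373 CPM in brain. Its call in optic nerve against brain (log2 fold change 3.90, SE 1.38, adjusted p = 0.0388) was lost without optic nerve replicate 2 or 4, sciatic nerve replicate 1 or 3, or brain replicate 1, 2, 4 or 5 (log2 fold changes 3.11 to 4.27, adjusted p from 0.051 to 0.121), and without both optic nerve replicates 2 and 4 the fold change turned to -1.42 (adjusted p = 0.559). For sciatic nerve (3.97, SE 1.39, adjusted p = 0.0284) the call was lost without sciatic nerve replicate 1 or 2 or brain replicate 4 (adjusted p = 0.0549, 0.0658 and 0.0584). Ccna2, which encodes cyclin A2, was higher in sciatic nerve (11.2 ± 3.32 CPM) than in brain (0.751 ± 0.696 CPM, log2 fold change 3.93, adjusted p = 0.00241) and was not called in optic nerve (2.50 ± 2.34 CPM, adjusted p = 0.123), where it passed without optic nerve replicate 1 (adjusted p = 0.0281) or brain replicate 1 (adjusted p = 0.0404).

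Among the mitotic kinases, Aurkb, the catalytic subunit of the chromosomal passenger complex, was at 19.6, 8.85, 13.2 and 11.8 CPM in sciatic nerve, at 1.31, 4.09, 2.01 and 4.08 CPM in optic nerve and at 0, 0, 0.373, 0 and 0.585 CPM in brain. The tissues did not overlap, with log2 fold changes of 6.05 (SE 1.00, adjusted p = 0.000167) and 3.83 (SE 0.94, adjusted p = 0.00545) against brain, and the difference of 2.22 between the nerves missed the threshold (SE 0.91, adjusted p = 0.0991). Aurka, the kinase of the spindle poles, overlapped between the nerves (5.48 ± 2.91 and 5.25 ± 1.82 CPM) and at 1.20 ± 0.678 CPM in brain (log2 fold changes 2.17, adjusted p = 0.00568, and 2.11, adjusted p = 0.0097). Plk1, the polo-like kinase of mitotic entry, had no read in sciatic nerve replicate 4, optic nerve replicate 1 and 4 of 5 brain libraries. Its call in sciatic nerve against brain (log2 fold change 4.35, SE 1.57, adjusted p = 0.0323) was lost without any 1 of sciatic nerve replicates 1, 2 and 3 or brain replicates 1, 2, 3 and 5 (log2 fold changes 4.03 to 4.33, adjusted p from 0.0503 to 0.0681). In optic nerve it was not called (adjusted p = 0.0573), and it was called without sciatic nerve replicate 4, optic nerve replicate 1 or brain replicate 4 (adjusted p = 0.0434, 0.0383 and 0.0153).

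Birc5, which encodes survivin of the same passenger complex, was even over the sciatic nerve libraries, at 11.3, 11.2, 12.8 and 10.7 CPM. It was at 2.82, 11.1, 5.25 and 4.56 CPM in optic nerve and at 0, 0, 0.420, 0 and 1.17 CPM in brain. All nerve libraries lay above brain (log2 fold changes 5.12, adjusted p = 0.000967, and 4.17, adjusted p = 0.00533), and optic nerve replicate 2 reached the sciatic nerve range. Bub1, a kinase of the spindle checkpoint, was at 5.88, 3.25, 1.30 and 5.46 CPM in sciatic nerve and at 0, 1.67, 1.73 and 9.29 CPM in optic nerve. In brain it had 2 reads in all, both in replicate 1, so the ratio of levels was 229 for sciatic nerve (95% Poisson interval 62.6 to 1899, counting error only) and 169 for optic nerve (46.2 to 1405). Both were called (adjusted p = 0.00118 and 0.00259). Bub1b, which encodes the checkpoint protein BubR1, was the exception among the 21 in sciatic nerve, at 7.65, 5.33, 12.7 and 0.533 CPM against 0 to 2.23 CPM in brain (adjusted p = 0.114).

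The motors, spindle proteins and degradation factors of mitosis followed the same pattern. In sciatic nerve Cenpe, Cenpf (both of the kinetochore), Kif11, Kif20a (kinesins), Nusap1, Tpx2 (spindle assembly), Ube2c, Cdc20 (both of the anaphase-promoting pathway) and Stmn1 (stathmin, which destabilises microtubules) had means of 4.35 to 11.2 CPM, against 0.247 to 2.30 CPM in brain, and all 9 were called, with log2 fold changes of 2.28 to 4.93. In optic nerve Cenpf, Kif11, Kif20a, Nusap1, Tpx2, Ube2c and Stmn1 were called, with log2 fold changes of 1.38 to 3.95, and Cenpe (4.68 ± 0.539 against 1.48 ± 1.48 CPM, adjusted p = 0.115) and Cdc20 (3.93 ± 4.67 against 0.776 ± 0.725 CPM, adjusted p = 0.0858) were not. Stmn1 is also known from neurons. It was at 11.6, 10.1, 10.3 and 12.7 CPM in sciatic nerve, at 7.45, 10.9, 7.09 and 10.1 CPM in optic nerve and at 3.32, 3.03, 1.26, 2.27 and 1.63 CPM in brain, without overlap between nerve and brain libraries, and the neuronal markers summed to at most 1.50 CPM in any nerve library and to 0.979 to 25.1 CPM in brain.

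Several of these calls were near the threshold and were lost when 1 of several libraries was left out. In sciatic nerve against brain Cdc20 was lost without sciatic nerve replicate 2 or 4 or brain replicate 4 (log2 fold changes 2.85, 2.56 and 2.92, adjusted p = 0.0539, 0.0771 and 0.0521) and Cenpe without brain replicate 4 or 5 (2.27 and 2.25, adjusted p = 0.051 and 0.0514). Kif20a was lost without sciatic nerve replicate 3, where its log2 fold change went from 4.09 to 2.84 (adjusted p = 0.0509); that library held 11.95 CPM of it against 0.1999 to 2.63 CPM in the others. In optic nerve against brain Cenpf was lost without optic nerve replicate 1, 2 or 4 or brain replicate 2 or 3 (log2 fold changes 1.21 to 1.43, adjusted p from 0.0523 to 0.095), Kif20a without optic nerve replicate 2, 3 or 4 or brain replicate 2, 4 or 5 (2.90 to 3.25, adjusted p from 0.0511 to 0.069) and Nusap1 without optic nerve replicate 2 (2.90, adjusted p = 0.052), while Cenpe was called without brain replicate 1 (adjusted p = 0.0274).

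Many but not all of the 21 genes showed the split of the optic nerve libraries. Replicate 2 held the highest optic nerve level in 12 of them and replicate 4 in 5, while Mki67 was highest in replicate 3 and Aurka, Kif11 and Cenpe in replicate 1. Without replicates 2 and 4 together, a choice made after seeing the data that leaves 2 optic nerve libraries, 6 of 21 genes were called higher in optic nerve than in brain in place of 16, 11 of 21 reached an unadjusted p under 0.05, and the median log2 fold change was 2.64. The summed level of the natural killer cell markers (Ncr1, Klrb1c, Nkg7, Gzma and Eomes) was 4.19 and 2.90 CPM in the same replicates 2 and 4. It was 0 in replicates 1 and 3. In optic nerve Klrb1c, Nkg7 and Gzma had reads, and 1 of the 5 markers had a mean above 1 CPM. Eomes had 0 reads there, and Ncr1, a defining marker, had 0 reads in all 13 libraries. The part of natural killer cells in the split was not tested. The summed level of the S phase genes was 354, 363, 382 and 387 CPM in the optic nerve libraries, much of it Pcna and Mcm3. Replicates 2 and 4 were the highest for 4 and 4 of the 10 S phase genes, among them Rrm2 (3.62, 12.4, 3.18 and 6.45 CPM), and without both 3 of 10 were called higher in optic nerve than in brain in place of 6 (7 at an unadjusted p under 0.05). Over the 21 genes the median coefficient of variation between libraries was 37.1% in sciatic nerve, 60.5% in optic nerve and 111% in brain, against 27.6%, 26.2% and 35.0% for all tested genes. The counts alone give 9.30%, 11.7% and 34.9% for the 21.

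**Figure D5:**
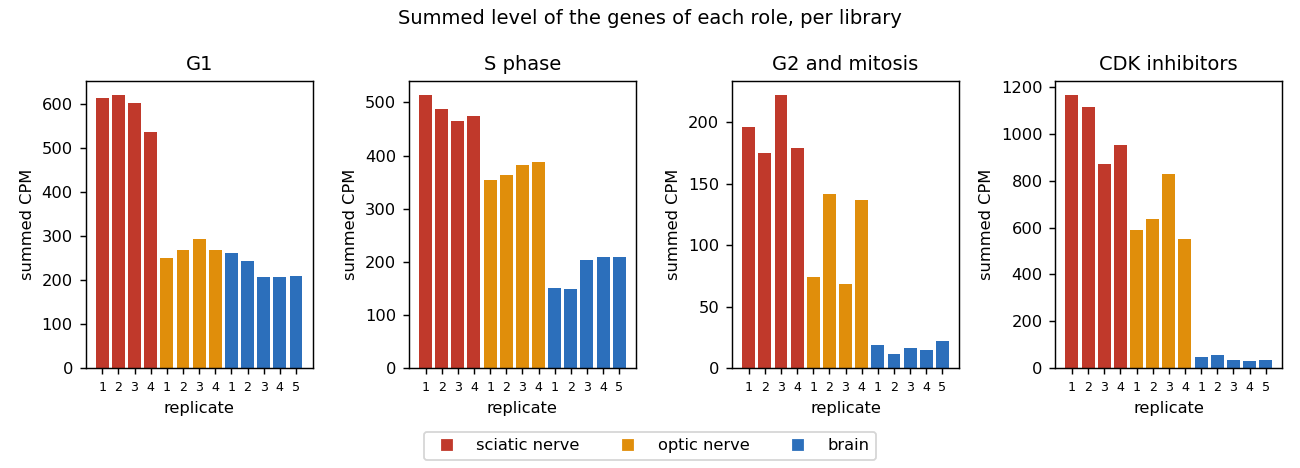
Summed level in CPM of the genes of each role in each library, coloured by tissue. The 4 optic nerve bars are near level for S phase (354 to 387 CPM) and split for G2 and mitosis (73.9, 142, 68.7 and 137 CPM), and the brain bars of the CDK inhibitors stay at 30.4 to 54.8 CPM against 551 CPM and more in the nerves.

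Of the CDK inhibitors all but Cdkn1b had higher means in the nerves than in brain. Against brain 3 of 4 were higher in sciatic nerve, 2 higher and 1 lower in optic nerve, and between the nerves 2 were higher in sciatic nerve. The shares of all tested genes called higher were 24.1%, 19.6% and 10.9%, and 17.4% were lower in optic nerve against brain. With only 4 genes, these counts cannot be read as a result about the role. Cdkn1a encodes p21, which blocks CDKs and the Pcna clamp and is a textbook target of p53 (mm10 chr17:29090976-29100727, plus strand). It was at 1093, 1072, 801 and 891 CPM in sciatic nerve, at 558, 597, 790 and 503 CPM in optic nerve and at 11.9, 17.3, 7.88, 9.39 and 11.2 CPM in brain. No tissue overlapped another, though optic nerve replicate 3 came close to sciatic nerve replicate 3.

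The log2 fold changes of Cdkn1a were 6.38 (SE 0.25, adjusted p = 4.19e-11) in sciatic nerve and 5.73 (SE 0.24, adjusted p = 3.02e-10) in optic nerve against brain. Between the nerves it was 0.66 (SE 0.22, adjusted p = 0.0437), a call that was lost without sciatic nerve replicate 1, 2 or 4, optic nerve replicate 1, 2 or 4, or brain replicate 5 (log2 fold changes 0.57 to 0.69, adjusted p from 0.0546 to 0.121). Per kilobase of exon Cdkn1a had the highest level of the 4 inhibitors in both nerves, at 355 CPM per kb in sciatic and 225 in optic nerve, and stood at 4.24 in brain. The immediate early genes, which cells switch on within minutes of a stimulus, moved with it: all 10 of a list of them added after the results were known (Fos, Fosb, Jun, Junb, Egr1, Ier2, Atf3, Nr4a1, Dusp1, Zfp36) were higher in both nerves than in brain. Of all tested genes, 24.1% were called higher in sciatic nerve and 19.6% in optic nerve than in brain. The summed level of these 10 genes was 23692 to 28173 CPM in sciatic nerve, 11525 to 14873 CPM in optic nerve and 341 to 409 CPM in brain. Their part in the level of Cdkn1a, and that of cell isolation, was not tested.

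A RefSeq promoter of Cdkn1a is shown for a pair of CATG cores spaced like those of a p53 site, in capitals. It is 280 bases of GRCm38.p6 at chr17:29090729-29091008, plus strand, from 250 bases before its start. The cores begin at position -48 counted from that start. The other RefSeq promoter of Cdkn1a lies downstream at chr17:29093519-29093818 and holds 0 such pairs. The letters CATGNNNNNNCATG were chosen after seeing this promoter and were in 0.713% of all promoters and in 0 of 17 promoters of a list of p53 targets and Trp53.
Cdkn1a: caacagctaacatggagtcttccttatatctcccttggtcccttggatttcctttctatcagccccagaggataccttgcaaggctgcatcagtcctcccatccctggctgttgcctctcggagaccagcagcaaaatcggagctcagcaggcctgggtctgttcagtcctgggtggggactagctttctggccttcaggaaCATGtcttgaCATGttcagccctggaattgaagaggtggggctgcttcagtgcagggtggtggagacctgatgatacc

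Cdkn1b encodes p27, an inhibitor held at high levels in resting cells, and had its highest mean in brain. It was at 2.35, 2.42, 1.73 and 7.06 CPM in sciatic nerve, at 2.16, 1.34, 1.28 and 2.31 CPM in optic nerve and at 15.3, 13.03, 4.80, 3.48 and 5.01 CPM in brain. Optic nerve lay below brain without overlap (log2 fold change -2.22, SE 0.60, adjusted p = 0.00934), a call that was lost without brain replicates 1 and 2 together (-1.31, adjusted p = 0.0751), which hold its highest levels. In sciatic nerve it was not called (-1.29, SE 0.57, adjusted p = 0.0754), and was called lower without sciatic nerve replicate 4 (adjusted p = 0.0157) or brain replicate 4 (adjusted p = 0.0484).

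Cdkn2c and Cdkn2d encode p18 and p19, inhibitors of CDK4 and CDK6. Cdkn2c was at 27.4, 17.7, 25.5 and 29.5 CPM in sciatic nerve, above all libraries of optic nerve (7.54 to 13.7 CPM) and brain (6.81 to 9.93 CPM), which overlapped each other. Its log2 fold changes were 1.46 (SE 0.26, adjusted p = 0.000274) against brain and 1.27 (SE 0.27, adjusted p = 0.00324) against optic nerve. Cdkn2d was at 34.3 ± 10.7 (sciatic nerve), 26.4 ± 5.73 (optic nerve) and 10.7 ± 2.56 CPM (brain), higher in both nerves (log2 fold changes 1.68, adjusted p = 7.58e-05, and 1.31, adjusted p = 0.00115).

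Further genes of the pathway, from lists drawn up by role, gave the following counts. Over all tested genes, 24.1% were called higher and 24.3% lower in sciatic nerve against brain. These shares were 19.6% and 17.4% in optic nerve against brain, and 10.9% in each direction between the nerves. Of 38 other S phase genes tested, 23 were higher and 0 lower in sciatic nerve against brain (23 at an unadjusted p under 0.05), 9 higher and 1 lower in optic nerve against brain, and 4 higher and 1 lower in sciatic against optic nerve. The median log2 fold changes were 1.68, 0.67 and 0.70. The shares called higher were 60.5%, 23.7% and 10.5%. Those in optic nerve against brain and between the nerves were near the shares of all tested genes. Mcm10, a DNA replication factor, had 131 reads in sciatic nerve against 1 in brain, a ratio of 253 (95% Poisson interval 44.6 to 10057). Cdc6 (10.6 against 0.1503 CPM) and Chaf1b (7.44 against 0.255 CPM), a chromatin assembly subunit, followed, with log2 fold changes of 6.03 and 4.78. In optic nerve Chaf1b (4.69) and Uhrf1 (3.01) were among those higher, and Usp1, a deubiquitinase, was lower (-0.67, adjusted p = 0.0359). Between the nerves Pola1, a polymerase subunit, was higher in sciatic nerve (22.3 against 3.16 CPM, log2 fold change 2.81, adjusted p = 0.000427), as were Lig1 (1.30) and Prim1 (1.24), while the licensing factor gene Cdt1 was higher in optic nerve (13.9 against 36.1 CPM, log2 fold change -1.38, adjusted p = 0.00552).

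Of 52 other genes of G2 and mitosis tested, 29 were higher and 3 lower in sciatic nerve against brain, 20 higher and 2 lower in optic nerve against brain, and 2 higher and 2 lower between the nerves, with medians of 2.63, 1.90 and 0.63. The shares called higher were 55.8%, 38.5% and 3.85%, the last below the 10.9% of all tested genes. Nek2, a centrosome kinase gene, had 0 reads in brain and was at least 95.1-fold higher in sciatic and at least 89.96-fold higher in optic nerve. The optic nerve libraries nevertheless overlapped those of brain for Nek2. Ska1, of the kinetochore, was at least 45.4-fold higher in sciatic nerve. These folds use floors of 3 reads over the brain libraries and cover counting error only. Kif23 in sciatic nerve (16.0 against 0.453 CPM, log2 fold change 5.33) and Kif2c (5.08) and Kif22 (4.71) in optic nerve, all kinesins, came next. The genes that went the other way were Hjurp, which loads the centromeric histone (25.6 CPM in sciatic nerve, 20.04 in optic nerve and 59.5 in brain, log2 fold changes -1.22 and -1.57), Ncaph, a condensin subunit (-1.08 and -1.51), and Espl1, separase (-0.78 in sciatic nerve). Between the nerves Smc4 (70.1 against 25.5 CPM, 1.46) and Incenp (1.87) were higher in sciatic nerve, and Lmnb1 (14.6 against 52.3 CPM, -1.84) and Pttg1 (-0.71) in optic nerve.

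The regulators of E2F target genes were mixed. Of 16 genes of E2F factors, the retinoblastoma family and DREAM, 2 were higher and 4 lower in sciatic nerve against brain, 1 higher and 2 lower in optic nerve against brain, and 2 higher and 2 lower between the nerves. In either direction 37.5%, 18.75% and 25% were called, against 48.4%, 36.9% and 21.8% of all tested genes. Rb1, the retinoblastoma gene, was at 80.4 CPM in sciatic nerve, 30.3 in optic nerve and 46.4 in brain (log2 fold changes 0.79 and -0.62 against brain and 1.41 between the nerves). E2f5 was higher in sciatic nerve than in both others (1.17 against brain and 0.87 against optic nerve). E2f3 was lower in sciatic nerve than in brain (3.25 against 21.9 CPM, -2.75) and than in optic nerve (-1.80), as was Tfdp2 than in optic nerve (-1.05). The DREAM subunit genes Lin9 (-1.96) and Lin37 (-1.02) were lower in sciatic nerve than in brain, Lin9 also in optic nerve (-0.99), and Rbbp4 was higher in optic nerve (0.58).

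Of 15 genes tested from a list of other inhibitors, antiproliferative factors and regulators of CDK activity, 8 were higher and 3 lower than brain in each nerve. These are 53.3% and 20%, and the share lower was near that of all tested genes (24.3% in sciatic and 17.4% in optic nerve). The list also holds Cdc25a and Skp2, which promote the cycle. Tob1, an antiproliferative factor, was at 110 to 191 CPM in sciatic nerve, 87.3 to 130 CPM in optic nerve and 2.49 to 8.02 CPM in brain (log2 fold changes 4.91 and 4.31). Wee1 (4.29 and 3.91) and Pkmyt1 (4.61 and 3.48), kinases that hold CDK1 inactive, were also higher in both nerves. Ccng2, an atypical cyclin of resting cells, was at 33.3 to 57.3 CPM in sciatic nerve, 72.5 to 125 CPM in optic nerve and 195 to 372 CPM in brain, in separate ranges (-2.70 and -1.68 against brain and -1.02 between the nerves). Cdc25a, whose phosphatase activates CDKs (-1.55 and -1.90), was lower in both, and Cables1 (-1.08) in sciatic nerve. Skp2, part of the ligase that degrades p27, was lower in optic nerve than in brain (0.969 against 13.1 CPM, -3.75) and than in sciatic nerve (2.57).

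Of the 15 genes tested from the p53 list, Trp53 itself included, 6 were higher and 1 lower in sciatic nerve against brain, 8 higher and 1 lower in optic nerve against brain, and 1 higher and 3 lower between the nerves, with medians of 0.72, 0.77 and 0.10. The shares called higher were 40%, 53.3% and 6.67%, against 24.1%, 19.6% and 10.9% of all tested genes. Plk2 (297 CPM in sciatic nerve, 191 in optic nerve and 0.585 in brain), Pmaip1 (199, 142 and 8.63 CPM) and the stress gene Gadd45a (11.3, 16.0 and 0.411 CPM) were higher in both nerves. Trp53 was lower in sciatic nerve than in brain (52.8 against 83.5 CPM, log2 fold change -0.66, adjusted p = 0.00497), and Sesn1 was lower in optic nerve than in brain (56.1 against 251 CPM, -2.16) and than in sciatic nerve. Sesn2 (-2.11) and Bbc3 (-1.71) were lower in sciatic than in optic nerve, as was Trp53 (-0.72).

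Of 9 genes that control macrophage growth, 4 were higher and 3 lower in sciatic nerve against brain, 5 higher and 2 lower in optic nerve against brain, and 2 in each direction between the nerves. In either direction 77.8%, 77.8% and 44.4% were called, against 48.4%, 36.9% and 21.8% of all tested genes. Csf1r, the receptor on which macrophages depend, was lower in sciatic nerve than in brain (4756 against 10965 CPM, log2 fold change -1.21, adjusted p = 0.00228), and Csf2ra was higher there (103 against 25.6 CPM, 2.01) and Csf2rb lower (-0.73). Csf1, a ligand of that receptor, was higher in optic nerve (142 CPM) than in brain (14.8 CPM, 3.25) and sciatic nerve (25.2 CPM). Klf2 (344 CPM in sciatic nerve, 292 in optic nerve and 6.91 in brain) and Klf4 (120, 40.6 and 0.742 CPM), factors known to hold cells at rest and also early response genes, were higher in both nerves. Maf, a factor that restrains macrophage self-renewal, was lower in optic nerve than in brain (69.5 against 423 CPM, -2.60) and than in sciatic nerve (1.82), while Myc was higher in optic than in sciatic nerve (-0.70, adjusted p = 0.0241).

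Markers of other cells that could bring cycle transcripts differed between the tissues, and those of T cells, neutrophils and erythroid cells were low or absent in all. Of the T cell markers Cd3e and Cd8a had 0 reads in all libraries and the summed level of the 6 was at most 3.12 CPM. In optic nerve 1 of the 6 had a mean above 1 CPM, and the 1 tested was not called in any comparison. Of 8 neutrophil markers S100a8, Ly6g, Mpo and Elane had 0 reads and the sum was at most 3.02 CPM. In sciatic nerve 1 of the 8 had a mean above 1 CPM. The 1 neutrophil marker tested was higher than brain in sciatic (log2 fold change 7.96) and optic nerve (6.15), and was not called between the nerves. The 6 erythroid markers summed to at most 0.214 CPM. The monocyte list reached 385 to 562 CPM in sciatic nerve against at most 23.2 CPM elsewhere. Nearly all of it was Ccr2 (458 CPM), with Ly6c2 at 0.0692 CPM. The 2 monocyte markers tested were higher in sciatic nerve than in brain (log2 fold changes 3.54 and 6.88). In optic nerve against brain 0 of the 2 were called, and 1 was higher in sciatic than in optic nerve. The dendritic cell list reached 353 to 456 CPM in sciatic nerve against at most 59.6 CPM elsewhere, most of it Cd209a (358 CPM), which macrophages also express. Of its 6 markers, 5 had a mean above 1 CPM in sciatic nerve. All 5 that were tested were higher in sciatic nerve than in brain (median log2 fold change 5.05), against 24.1% of all tested genes. In optic nerve against brain 4 of the 5 were higher, against 19.6%. In sciatic against optic nerve 1 of the 5 was higher. With so few genes, that count cannot be told apart from the 10.9% of all tested genes. The B cell list was highest in brain (53.4 to 85.6 CPM, nearly all Cd79b). Fibroblast markers summed to 154 CPM in sciatic nerve replicate 1, to 26.6 to 35.1 CPM in its other replicates and to at most 3.55 CPM elsewhere. Mast cell markers reached 8.73 CPM in sciatic nerve replicate 4. Of the 7 Schwann cell markers Pmp22 made up most of 1030 to 1179 CPM in sciatic nerve and was also at 594 CPM in brain. In sciatic nerve only Sox10 had 0 reads, and 3 of the 7 had a mean above 1 CPM. Of the 3 tested, 2 were higher in sciatic nerve than in brain, and 2 were higher than in optic nerve. Oligodendrocyte markers were at 154 to 205 CPM in optic nerve and 50.6 to 78.2 CPM elsewhere, with Olig2 at 0 reads. Of the 4 tested, 3 were higher in optic nerve than in brain, and 3 were lower in sciatic than in optic nerve. In sciatic nerve against brain 2 of the 4 were higher and 1 lower. Astrocyte markers were highest in brain (184 to 246 CPM, mostly Slc1a3), and endothelial markers were highest in brain (17.0 to 47.7 CPM). The part of these cells in the cell cycle differences was not tested.

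Some rows can share reads with other genes, since the strand setting of the counting is not given. Exons of Kif20a overlap those of Cdc23 on the other strand by 1271 bases, those of Ccnd1 overlap LTO1 by 818, Cdk4 overlaps Tspan31 by 641, Ube2c overlaps Tnnc2 by 592, Ccna2 overlaps Exosc9 by 378, Ccnd3 overlaps Bysl by 361, Ccne2 overlaps Ints8 by 336, Mcm7 overlaps Ap4m1 by 321 and Nusap1 overlaps Oip5 by 172. Cdc20 (0 to 200 reads a library) overlaps Elovl1 (1632 to 4794 reads) by 53 bases. Without strand, reads of these pairs cannot be told apart, so the low levels of Kif20a, Ccna2, Ccne2 and Cdc20 and the small differences of Ccnd1, Ccnd3 and Cdk4 are uncertain. The processed pseudogenes Ccnb2-ps (0 to 103 reads a library) and Pcna-ps2 (7 to 47 reads) have rows of their own and may take reads of Ccnb2 and Pcna.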

How the data were processed

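RNA sequencing counts were analysed from 4 sciatic nerve, 4 optic nerve and 5 brain libraries. The authors deposited raw counts per gene symbol, made with STAR (version not given in the sources used here) and featureCounts 1.5.1 on mm10, per the submitters' processing notes. No source used here gives the strand setting or annotation. All per-sample columns were used (0 left out), and 0 rows named no gene.

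From these counts, edgeR 4.0.16 (R 4.3.3, limma 3.58.1) gave TMM factors, the default filterByExpr filter and 1 quasi-likelihood fit over all 13 libraries with tissue as the only term. Benjamini-Hochberg adjustment ran over all 13246 genes tested, with calls at 0.05. Intervals and floors of 3 counts cover counting error only. Alternatives were RLE factors, library totals, no filter, DESeq2 1.42.0, only the compared tissues, a replicate block and libraries left out. The scripts were tested on simulated data.

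The cell cycle genes and all lists were chosen with earlier results of these data known. Cell cycle genes called in any comparison are named, the others given by range. From each further list, up to 3 called genes per comparison and direction with the largest fold are named, among those with a mean of at least 1 CPM in 1 of the tissues compared. A few genes that this rule would name are not reported here.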

Additional observations from a re-analysis of the deposited data

Results flagged for a closer look

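In 12 of 132 pairs of a cell cycle gene and a tissue, the highest or lowest library lay far from the others of its tissue by Dixon's 95% criterion. Chance gives about 1 in 20 (6.6 of 132). In sciatic nerve these were Cdk4 in replicate 1 (152 CPM), Ccne2 in replicate 1 (3.27 CPM), Rrm1 in replicate 3 (76.2 CPM) and Cdkn1b in replicate 4 (7.06 CPM), each the highest of its tissue. In brain the high values were Nusap1 in replicate 1 (2.04 CPM), Bub1 in replicate 1 (0.151 CPM), Kif20a in replicate 3 (0.933 CPM), Plk1 in replicate 4 (0.341 CPM), and Ccne1 (1.17 CPM) and Rrm2 (1.59 CPM) in replicate 5. The low values in brain were Mcm7 in replicate 2 (3.59 CPM) and Cdkn2c in replicate 4 (6.81 CPM). No optic nerve library was among the 12.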

How the results depend on the processing

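Over 21 alternative settings, 28 of the 35 calls in sciatic nerve against brain, 12 of the 30 in optic nerve against brain and 4 of the 7 between the nerves held in every setting. With optic nerve libraries 2 and 4 left out together, a choice made after seeing the data that also leaves fewer samples, cell cycle genes called higher went from 27 to 14 in optic nerve against brain and from 7 to 4 between the nerves, those called lower in optic nerve against brain from 3 to 1, and Ccnb1 in optic nerve against brain turned to a log2 fold change of -1.42. Over all genes, calls lower in optic nerve against brain then went from 2303 to 1455 and calls higher between the nerves from 1447 to 955. Without brain libraries 1 and 2 together, 11 cell cycle genes were called higher between the nerves, as with DESeq2, and 1 was called lower in optic nerve against brain; the cause was not tested. In sciatic nerve against brain 1 cell cycle gene, Cdkn1b, was called lower with library totals only and with DESeq2, against 0.

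Library totals alone moved the median of all genes by -0.44 (sciatic nerve against brain), -0.25 (optic nerve against brain) and -0.19 (between the nerves), and the share of calls that were higher from 49.8% to 31.2%, 52.9% to 37.0% and 50.03% to 35.8%, with 4942 genes lower in sciatic nerve against brain in place of 3219. Leaving out 1 library at a time gave 32 to 35 cell cycle genes higher and 0 to 1 lower in sciatic nerve against brain, 24 to 29 and 2 to 3 in optic nerve against brain, and 5 to 9 and 0 between the nerves. The replicate block gave 31 higher in sciatic nerve against brain, 25 higher and 2 lower in optic nerve against brain, and 5 higher between the nerves. The labels do not say whether equal replicate numbers pair the samples. Of 12 same-numbered pairs 0 correlated above 0.1 (-0.0776 to 0.0773), and 4 of 13 libraries correlated best with their own number. With so few libraries, low correlations cannot exclude a pairing. For the mitotic genes in brain counting alone gives a median coefficient of variation of 34.9%, against 111% observed.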
